A study of Mus musculus with 48 samples.

Results

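Transcripts of 8 genes, Timeless and others whose products mark, degrade or stabilise clock proteins, were followed in mouse liver with and without inducible loss of Bmal1. The genes were picked by symbol from the deposited gene count table: the kinases Csnk1d, Csnk1e and Gsk3b, the F-box genes Btrc, Fbxw11 and Fbxl21, the deubiquitinase Usp2, and Timeless. Each symbol matched 1 row of the 23732 in the table, and all 8 genes were among the 14836 with enough counts to be tested. KO mice were Bmal1f/f with EsrCre, a Cre recombinase present in all tissues that becomes active on tamoxifen. The controls, labelled WT, were Bmal1f/f littermates that lacked Cre, so the floxed allele was shared by all mice. Both genotypes were male, on a C57BL/6 background, 4 to 6 months old, and given 5 mg of tamoxifen a day by gavage for 5 days. After 7 more days they were moved to constant darkness for 36 h and killed in the dark at ZT0, ZT4, ZT8, ZT12, ZT16 and ZT20 (zeitgeber time, in hours, as the labels have it; the table's headings say CT), with 4 mice per genotype and time. Cre was present in all KO mice and in none of the WT mice, so its own effect and the loss of Bmal1 cannot be told apart. Counts over the whole targeted gene do not check the deletion of its floxed part.

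In the mammalian clock, BMAL1 with CLOCK activates the Per and Cry genes, whose proteins later repress that pair. Casein kinase 1 phosphorylates PER proteins, and the F-box proteins encoded by Btrc and Fbxw11 recognise the phosphorylated form and pass it to a ubiquitin ligase for degradation. FBXL21 acts on CRY proteins in the same way, GSK3B phosphorylates several clock proteins, and USP2 removes ubiquitin from clock proteins. Timeless is the mammalian relative of a fly clock gene and is best known in mammals for its work at the DNA replication fork. These enzymes act on proteins, and only mRNA was measured here.

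Total counts per library lay between 33562272 and 34035644, and 17690 to 18774 genes had at least 1 count. Hepatocyte markers were abundant in all libraries: Ttr averaged 4941 CPM (counts per 1000000) in KO and 5138 CPM in WT. Summed markers of T and B lymphocytes and NK cells lay at 1.70 to 11.4 CPM in KO and 2.52 to 13.8 CPM in WT. In whole liver, fewer cells of a type and less RNA per cell cannot be told apart. By the cage entries in the labels, 3 pairs of times were housed apart from each other (ZT4 with ZT8, ZT12 with ZT16, ZT20 with ZT0), so time and cage set cannot be told apart except for steps within a set. An earlier analysis of these data found 4 KO libraries, mice 20 and 21 (ZT12) and mice 43 and 44 (ZT0), farthest from their groups. Values without these 4 mice are given for Timeless at ZT12, Fbxl21 at ZT20 and Usp2 at ZT8. A count of calls without them is given for steps within cage sets. Other results, among them the relation of Csnk1d with Dbp, are not given without these 4 mice together. Levels below are CPM scaled by TMM factors, which adjust each library's total for its composition.

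Most of the 8 genes were nearly level across the day, and Usp2 was the clear exception. The 24 h wave fitted to each genotype gives an amplitude, the distance on the log2 scale from the mean to the peak. In KO liver the amplitudes of the 8 genes ran between 0.037 (Btrc) and 0.32 (Timeless), with a median of 0.099. In WT liver they ran between 0.056 (Csnk1e) and 1.52 (Usp2), with a median of 0.14. Over all 14836 genes the median amplitude was 0.11 in KO and 0.18 in WT. The listed genes therefore sat near the middle of the transcriptome or below it, apart from Usp2 at percentile 84.2 in KO and 99.7 in WT, and Timeless at percentile 91.5 in KO and 82.4 in WT.

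Core clock genes set the scale for large swings. Over 19 of them the median amplitude was 0.20 in KO and 1.51 in WT. In WT it ran between 0.28 for Rora, a nuclear receptor, and 3.52 for Npas2, a partner of BMAL1, with Bhlhe41, a transcriptional repressor, at the median of 1.51. The WT wave of Usp2 was larger than that of 10 of the 19, the WT wave of Timeless was larger than that of 1 (Rora), and none of the 19 had a WT wave as small as those of the other 6 genes.

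**Figure D1:**
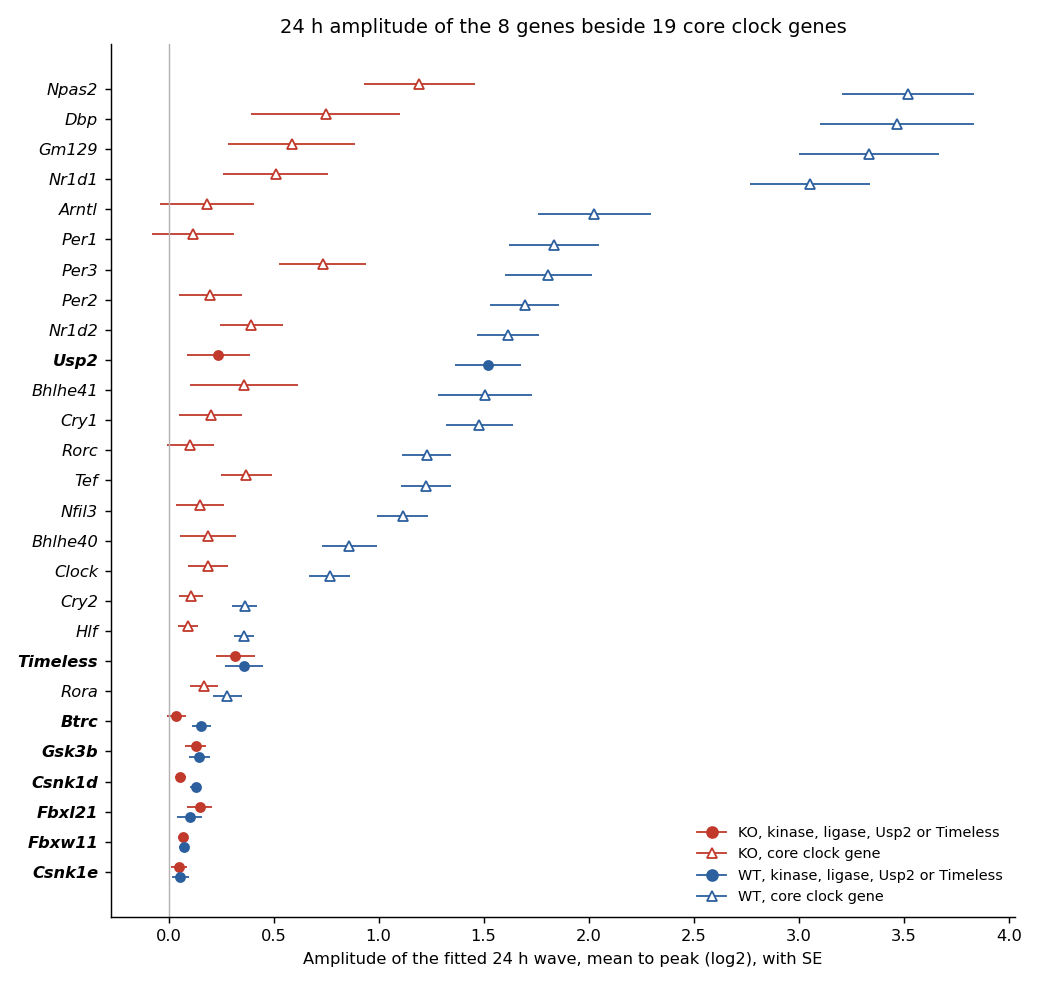
Amplitude of the fitted 24 h wave (x axis, log2 distance from mean to peak, bars are SE) for the 8 listed genes (filled circles, bold names) and 19 core clock genes (open triangles), in KO (red) and WT (blue). Usp2 sits among the core clock genes at 1.52 in WT and falls back to 0.24 in KO, while 6 of the 8 genes lie at the bottom at 0.15 or less in both genotypes.

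A 24 h rhythm passed an adjusted p of 0.05 (edgeR quasi-likelihood test, Benjamini-Hochberg over all genes) for none of the 8 genes in KO, where 0.984% of all genes passed. That share is unstable: 146 genes passed, against 455 by DESeq2 and between 3 (without KO mouse 14) and 473 (without KO mouse 44) with 1 mouse left out. At an unadjusted p under 0.05 there were 3 in KO, Timeless, Fbxw11 and Gsk3b, against 3205 of the 14836 genes. DESeq2 called none of the 8 in KO. In WT 6 of the 8 passed (Usp2, Csnk1d, Timeless, Btrc, Fbxw11 and Gsk3b), against 48.1% of all genes. Among the core clock genes 1 of 19 passed in KO (Npas2) and 19 of 19 in WT. The rhythm itself differed between KO and WT for 2 of the 8 genes, Usp2 and Timeless, against 22.8% of all genes and 18 of the 19 core clock genes (all but Rora). The genotype by time interaction, which asks whether the KO minus WT difference depended on time in any shape, gave the same pair, 2 of 8 against 20.7% of all genes. Both shares lay near the background. For the other 6 genes a difference in rhythm was not shown, and for Csnk1d, Btrc, Fbxw11 and Gsk3b a call in WT beside none in KO is not a difference between the genotypes.

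Of the KO minus WT differences that passed the test, 5 lay at single times and belonged to Usp2 or Timeless, and 1, of Fbxl21, lay in the average over the day. Averaged over the 6 times, 1 of 8 genes was called, Fbxl21, which was higher in KO, against 8.86% of all genes. At ZT0 and again at ZT4, 1 of the 8 was called, Usp2, higher in KO, against 1.68% and 3.79% of all genes. At ZT8 none was called (1 by DESeq2), against 7.87% of all genes. An unadjusted p under 0.05 was reached there by 3 of the 8, against 3128 of the 14836 genes. At ZT12 Usp2 and Timeless were lower in KO, 2 of 8 against 11.7% of all genes. At ZT16 Timeless alone was lower in KO, 1 of 8 against 5.37%. At ZT20 none was called (1 by DESeq2), against 1.05%. An unadjusted p under 0.05 was reached there by 2 of the 8, against 1958 of the 14836 genes.

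**Figure D2:**
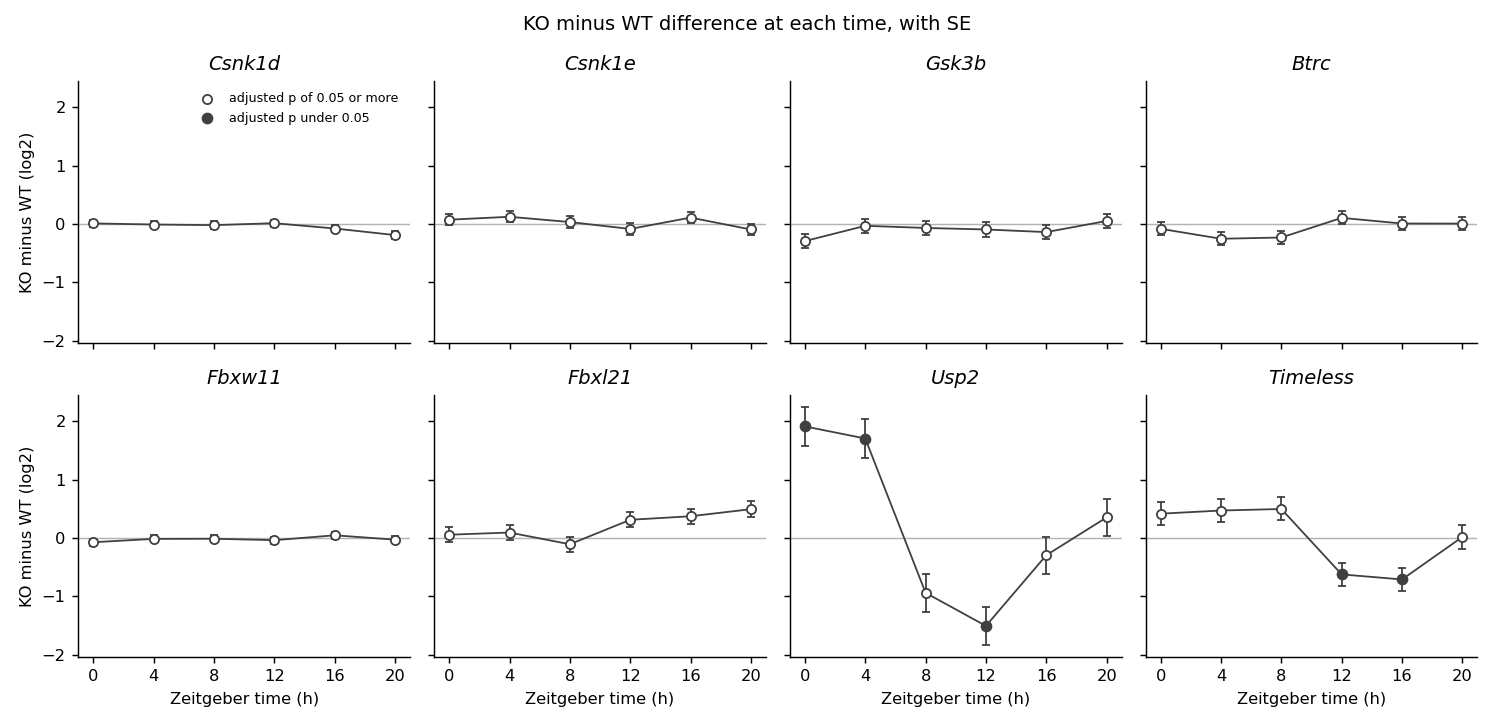
KO minus WT difference (y axis, log2, bars are SE) at each zeitgeber time (x axis, hours) for the 8 genes; filled points have an adjusted p under 0.05. Usp2 runs between 1.91 at ZT0 and -1.51 at ZT12 and Timeless between 0.50 at ZT8 and -0.71 at ZT16, while the other 6 genes stay between -0.29 and 0.49.

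Csnk1d encodes casein kinase 1 delta (ENSMUSG00000025162, mm9 chromosome 11, 120819779 to 120852644). Among the kinases it had the highest level per kb of exon, and its WT rhythm was small. Its level was 17.8 CPM per kb of exon in KO and 18.4 CPM per kb in WT. The 4 KO livers of ZT20 held 87.3, 91.6, 94.2 and 95.8 CPM, and the 4 WT livers of ZT20 held 100.5, 103, 106 and 112 CPM. At that time every WT liver was above every KO liver, the only time of the 6 at which the genotypes did not overlap. How often genotypes separate in this way over all genes was not counted, here or for the genes below. The KO livers held 87.2, 89.3, 90.7 and 93.0 CPM at ZT0, 81.1, 89.0, 90.9 and 96.3 CPM at ZT4, 78.1, 81.9, 87.0 and 87.1 CPM at ZT8, 78.2, 89.3, 91.0 and 102 CPM at ZT12, and 88.8, 90.0, 91.2 and 98.3 CPM at ZT16. The WT livers held 85.8, 86.0, 90.2 and 95.8 CPM at ZT0, 86.3, 87.9, 92.0 and 93.5 CPM at ZT4, 81.3, 81.6, 86.5 and 89.3 CPM at ZT8, 84.8, 88.2, 91.4 and 92.9 CPM at ZT12, and 91.6, 97.2, 97.8 and 102 CPM at ZT16. Within WT the livers of ZT16 and ZT20 held the higher values, while KO livers showed no time that stood apart. The ZT20 difference was -0.19 ± 0.06 (log2, SE), with an adjusted p of 0.126, so it did not pass the threshold. Group means of Csnk1d ran between 83.5 CPM (ZT8) and 92.2 CPM (ZT20) in KO and between 84.7 CPM (ZT8) and 105 CPM (ZT20) in WT. The amplitude was 0.056 ± 0.027 in KO (SE, adjusted p = 0.341) and 0.13 ± 0.026 in WT (SE, adjusted p = 0.000461), with the WT peak at ZT 19.1. This WT wave spans 1.19-fold from trough to peak. The rhythm was not shown to differ between genotypes (adjusted p = 0.331).

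Csnk1e, which encodes casein kinase 1 epsilon (ENSMUSG00000022433, chromosome 15, 79248282 to 79274349), did not pass any test of rhythm or genotype. Its level was 7.16 CPM ± 0.639 in KO and 7.03 CPM ± 0.603 in WT (SD, n = 24 each), or 1.09 CPM per kb in KO and 1.07 CPM per kb in WT. Single livers ran between 6.03 and 8.36 CPM in KO and between 5.80 and 8.13 CPM in WT, and the genotypes overlapped at all 6 times. Its amplitude was 0.050 ± 0.040 in KO and 0.056 ± 0.040 in WT (SE), about as large as its own error. The average difference of KO and WT was 0.027 ± 0.039 (log2, SE, adjusted p = 0.73).

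Gsk3b, a kinase of glycogen and clock proteins (ENSMUSG00000022812, chromosome 16, 38089087 to 38246170), had waves of much the same size and timing in the 2 genotypes. Its group means ran between 46.1 CPM (ZT12) and 59.1 CPM (ZT20) in KO and between 48.7 CPM (ZT4) and 61.2 CPM (ZT0) in WT. The amplitude was 0.13 ± 0.050 in KO with a peak at ZT 20.6 (SE, adjusted p = 0.219) and 0.15 ± 0.051 in WT with a peak at ZT 21.3 (SE, adjusted p = 0.0464). The WT call stood at the threshold: leaving out 1 mouse at a time, 21 of the 48 fits kept it, with adjusted p between 0.0306 and 0.105. It also ended with all genes kept in the test (adjusted p = 0.0685), with cage as a random block in limma-voom (adjusted p = 0.0564), and in the test for any difference among the 6 times (adjusted p = 0.103). The average KO minus WT difference was -0.096 ± 0.050 (log2, SE, adjusted p = 0.248), with 5.09 CPM per kb in KO and 5.44 CPM per kb in WT.

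**Figure D3:**
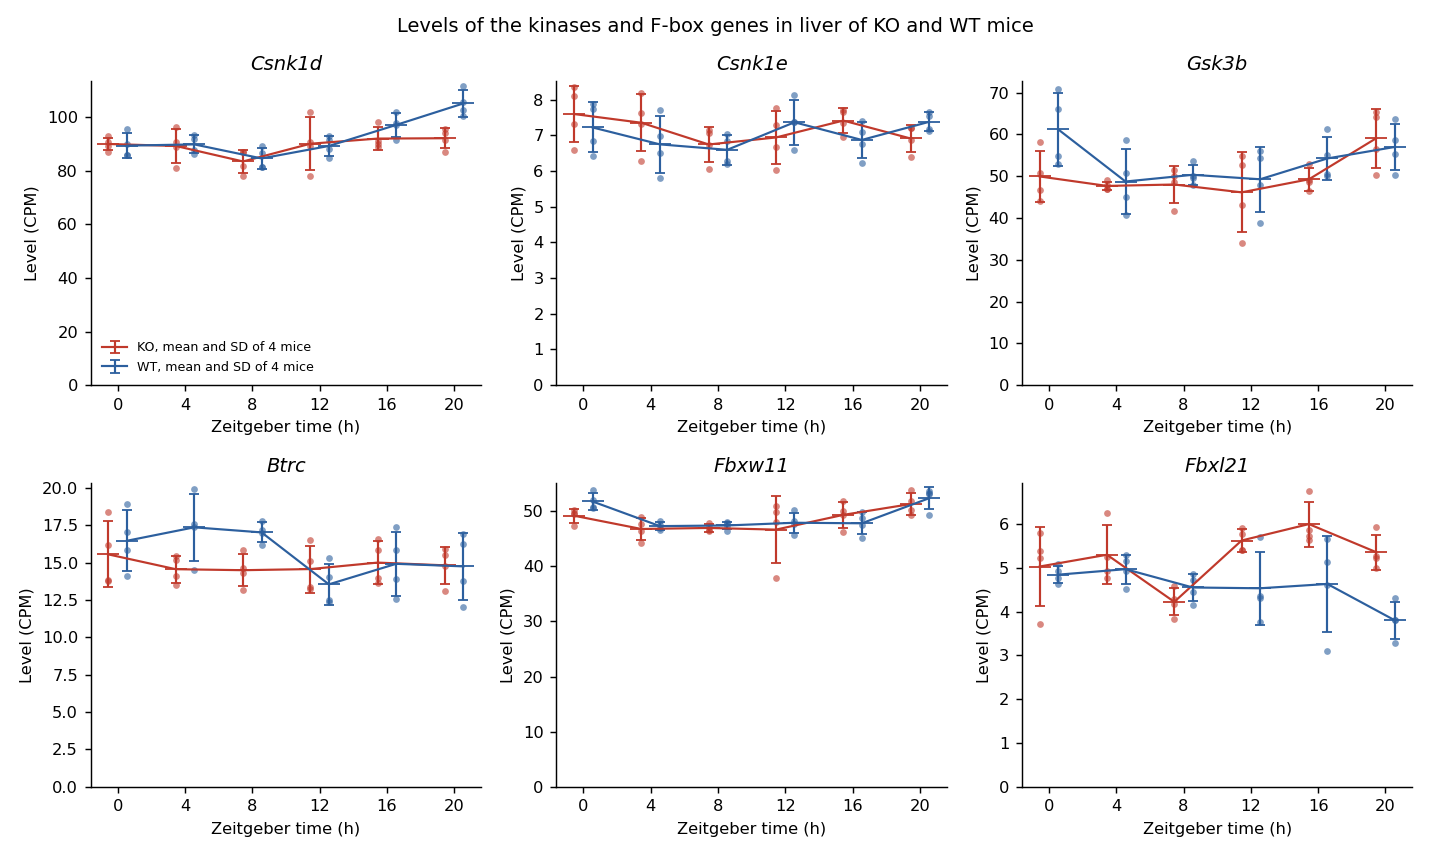
Level (y axis, CPM, starting at 0) of the 3 kinases and 3 F-box genes at each zeitgeber time (x axis, hours) in single KO livers (red, left) and WT livers (blue, right), with the mean and SD of 4 mice. The points of the genotypes lie over each other at most times; Csnk1d at ZT20 (92.2 CPM in KO, 105 CPM in WT) and Fbxl21 at ZT20 (5.36 CPM in KO, 3.80 CPM in WT) are separate.

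The F-box pair that recognises phosphorylated PER was close to level. Btrc (ENSMUSG00000025217, chromosome 19, 45438224 to 45607831) stood at 14.8 CPM ± 1.35 in KO and 15.7 CPM ± 2.17 in WT (SD, n = 24 each). Its group means spanned 14.5 to 15.6 CPM in KO and 13.6 CPM (ZT12) to 17.4 CPM (ZT4) in WT. The amplitude was 0.037 ± 0.046 in KO (SE, adjusted p = 0.839) and 0.15 ± 0.045 in WT (SE, adjusted p = 0.0153), peaking at ZT 3.51 in WT. At ZT8 the KO livers, at 13.2 to 15.8 CPM, lay below the WT livers, at 16.2 to 17.8 CPM, by -0.23 ± 0.11 (log2, SE, adjusted p = 0.225). Within the cage set of ZT4 and ZT8 alone, Btrc was lower in KO by -0.24 (log2, adjusted p = 0.0331). The difference was 0.056 for ZT12 with ZT16 (adjusted p = 0.719) and -0.038 for ZT20 with ZT0 (adjusted p = 0.836).

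Fbxw11, the paralogue of Btrc (ENSMUSG00000020271, chromosome 11, 32542724 to 32646816), had the smallest median spread between mice of a group. Its coefficient of variation had a median of 4.14% in KO groups and 3.37% in WT groups. Group means spanned 46.6 CPM (ZT12) to 51.3 CPM (ZT20) in KO and 47.3 CPM (ZT4) to 52.3 CPM (ZT20) in WT. The amplitude was 0.068 ± 0.024 in KO (SE, adjusted p = 0.169) and 0.074 ± 0.024 in WT (SE, adjusted p = 0.0272), a span of 1.10-fold in KO and 1.11-fold in WT. The WT call ended without WT mouse 42 of ZT0, WT mouse 19 of ZT12, or WT mouse 33, 35 or 36 of ZT20, with adjusted p up to 0.0654. It also ended with all genes kept in the test (adjusted p = 0.0778) and in the test for any difference among the 6 times (adjusted p = 0.0684). The fitted peaks, ZT 20.0 in KO and ZT 21.5 in WT, lay close to those of Gsk3b. At ZT0 all KO livers, at 47.3 to 50.2 CPM, were below all WT livers, at 50.5 to 53.8 CPM. The KO minus WT difference at ZT0 was -0.074 ± 0.058 (log2, SE, adjusted p = 0.541), so it did not pass. Averaged over the day the difference was -0.021 ± 0.024 (log2, SE, adjusted p = 0.651).

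Fbxl21 (ENSMUSG00000035509, chromosome 13, 56623833 to 56639259) was the only one of the 8 genes whose level averaged over the day passed the test. The KO livers of ZT12 held 5.41, 5.41, 5.77 and 5.91 CPM, those of ZT16 held 5.64, 5.74, 5.86 and 6.76 CPM, and those of ZT20 held 5.00, 5.22, 5.27 and 5.94 CPM. The WT livers held 3.75, 4.31, 4.37 and 5.71 CPM at ZT12, 3.11, 4.62, 5.14 and 5.66 CPM at ZT16, and 3.28, 3.81, 3.82 and 4.30 CPM at ZT20. The lowest of these 12 KO values was 5.00 CPM, and 9 of the 12 WT values were below it, a cut set by the KO values themselves. ZT12, ZT16 and ZT20 are also the times with the largest KO minus WT differences of Fbxl21. The KO livers held 3.72, 5.21, 5.38 and 5.80 CPM at ZT0, 4.76, 4.92, 5.25 and 6.26 CPM at ZT4, and 3.84, 4.18, 4.28 and 4.59 CPM at ZT8. The WT livers held 4.62, 4.76, 4.92 and 5.08 CPM at ZT0, 4.52, 4.93, 5.14 and 5.28 CPM at ZT4, and 4.16, 4.45, 4.73 and 4.87 CPM at ZT8. The genotypes overlapped at each of these earlier times, and at ZT8 the KO mean (4.22 CPM) was below the WT mean (4.55 CPM).

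Over the 6 times Fbxl21 stood at 5.26 CPM ± 0.748 in KO and 4.56 CPM ± 0.668 in WT (SD, n = 24 each). The average difference was 0.20 ± 0.05 (log2, SE, adjusted p = 0.0122), a 1.15-fold higher level in KO. It was largest at ZT20, at 0.49 ± 0.13 (log2, SE, adjusted p = 0.0544; 0.0231 by DESeq2 and 0.0285 without KO mice 20, 21, 43 and 44). By cage set the difference was 0.34 within the cage set of ZT12 and ZT16 (adjusted p = 0.0122), 0.27 within that of ZT20 and ZT0 (adjusted p = 0.0709) and -0.0078 within that of ZT4 and ZT8 (adjusted p = 0.969). A change of the difference with time was not shown (interaction, adjusted p = 0.0883). Between cage mates alone (11 cages with a KO and a WT mouse of the same time, cage as a block) it was 0.38, with an adjusted p of 0.103. KO mice weighed 27.9 g ± 2.52 and WT mice 30.5 g ± 2.08 (SD, n = 24 each), and with body weight in the model the difference was 0.20 with an adjusted p of 0.063. The part of body weight in the result was not tested further. No 24 h rhythm was called, with amplitudes of 0.15 ± 0.059 in KO (SE, adjusted p = 0.234) and 0.10 ± 0.060 in WT (SE, adjusted p = 0.336).

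Usp2, which encodes a ubiquitin protease (ENSMUSG00000032010, chromosome 9, 43875104 to 43903708), swung in WT liver like a core clock gene and lay near a middle level in KO liver. In KO the livers held 29.9, 33.8, 43.7 and 72.5 CPM at ZT0, 35.4, 40.5, 49.2 and 55.0 CPM at ZT4, and 33.0, 37.6, 46.6 and 58.8 CPM at ZT8. They held 26.2, 32.6, 34.5 and 35.7 CPM at ZT12, 19.8, 31.4, 36.5 and 56.9 CPM at ZT16, and 34.8, 35.4, 36.5 and 39.2 CPM at ZT20. No time of day stood apart among the KO livers, and the ranges of neighbouring groups in the order of their means overlapped throughout.

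In WT the livers held 4.70, 7.81, 9.81 and 25.5 CPM of Usp2 at ZT0, 7.65, 13.0, 13.0 and 21.6 CPM at ZT4, and 70.3, 75.9, 80.7 and 111 CPM at ZT8. They held 82.5, 85.8, 97.4 and 102 CPM at ZT12, 34.98, 44.7, 48.2 and 49.7 CPM at ZT16, and 18.3, 27.1, 28.5 and 40.4 CPM at ZT20. The WT livers of ZT8 and ZT12 were all above those of the other 4 times, while ZT8 and ZT12 overlapped each other, as did ZT16 with ZT20, ZT20 with ZT4, and ZT4 with ZT0. The genotypes did not overlap at ZT0 and ZT4, where all KO livers were higher, nor at ZT8 and ZT12, where all KO livers were lower.

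**Figure D4:**
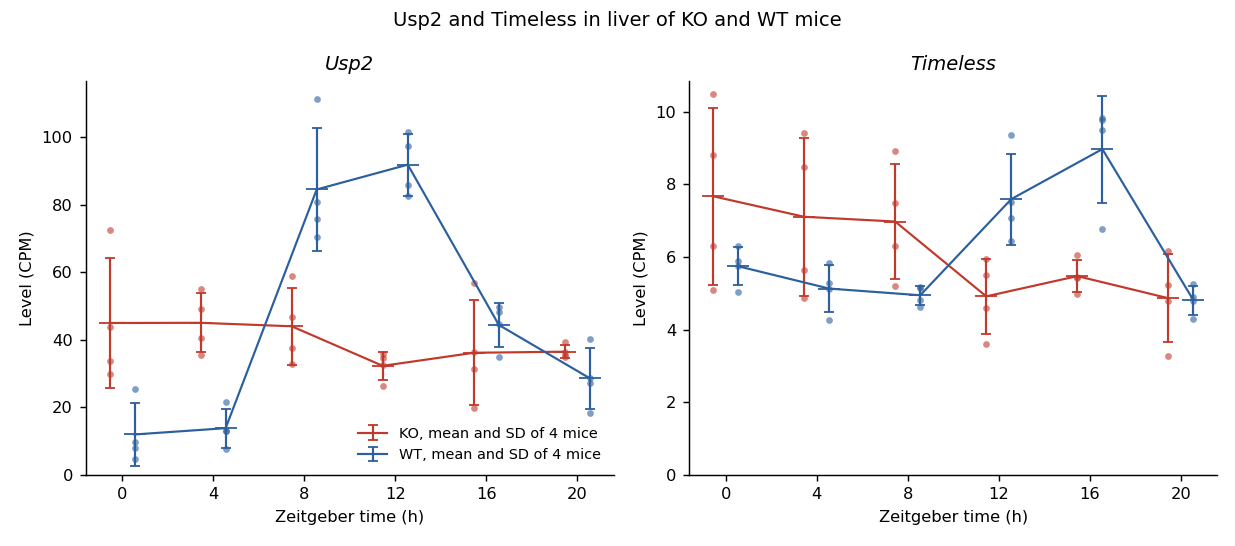
Level (y axis, CPM, starting at 0) of Usp2 and Timeless at each zeitgeber time (x axis, hours) in single KO livers (red, left) and WT livers (blue, right), with the mean and SD of 4 mice. Usp2 stays at group means of 32.3 to 45.02 CPM in KO and spans 11.9 to 91.9 CPM in WT; Timeless has its highest KO mean at ZT0 (7.68 CPM) and its highest WT mean at ZT16 (8.97 CPM).

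The KO minus WT difference of Usp2 changed sign over the day. It was 1.91 ± 0.33 at ZT0 (log2, SE, adjusted p = 0.0024) and 1.71 ± 0.33 at ZT4 (adjusted p = 0.00257), then -0.94 ± 0.32 at ZT8 (adjusted p = 0.0609) and -1.51 ± 0.33 at ZT12 (adjusted p = 0.00171). The ZT8 difference passed by DESeq2 (adjusted p = 0.0475), by limma-voom with cage as a block (adjusted p = 0.0397) and without KO mice 20, 21, 43 and 44 (adjusted p = 0.0466). At ZT16 and ZT20 it was -0.30 ± 0.32 and 0.35 ± 0.32, neither of which passed. The values cancel in the average, 0.20 ± 0.13 (log2, SE, adjusted p = 0.365). The amplitude was 0.24 ± 0.15 in KO (SE, adjusted p = 0.526) and 1.52 ± 0.16 in WT (SE, adjusted p = 1.82e-09), with the WT peak at ZT 12.0 and a span of 1.39-fold in KO and 8.21-fold in WT. The rhythms differed with an adjusted p of 1.04e-06 and the interaction had one of 8.3e-07. Both held in each of the 48 fits with a single mouse left out. Within single cage sets, KO minus WT was 0.38 for ZT4 with ZT8 (adjusted p = 0.275), -0.90 for ZT12 with ZT16 (adjusted p = 0.00695) and 1.13 for ZT20 with ZT0 (adjusted p = 0.00226).

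Usp2 lies within the span that the deposited table gives to Rnf26, a RING finger gene, and the libraries do not record strand, so how reads in the 28605 shared bases were divided is not known. Rnf26 had 347 to 578 counts per library, a far narrower range than the counts of Usp2, which ran between 181 and 3503. The start of the single Usp2 entry in the RefSeq promoter table is shown because Usp2 moved with the clock genes. It is the window of chr9:44084670-44084969, plus strand, of build GRCm38.p6, from 250 bases before the start to 50 after it, which is not the mm9 build of the counts:
Usp2: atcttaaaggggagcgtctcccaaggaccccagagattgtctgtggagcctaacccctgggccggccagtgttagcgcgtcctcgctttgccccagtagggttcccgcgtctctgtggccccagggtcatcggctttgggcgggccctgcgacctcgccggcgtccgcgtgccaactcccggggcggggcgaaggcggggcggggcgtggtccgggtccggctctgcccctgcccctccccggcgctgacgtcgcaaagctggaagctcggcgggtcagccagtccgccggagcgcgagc
It was searched on both strands for the E-box CACGTG, the related CACGTT, the D-box TTANGTAA and the ROR element core TAGGTCA, which are the sites of BMAL1 with CLOCK, of the same pair, of DBP and its relatives, and of REV-ERB and ROR receptors. None of these letters was in this window, and sequence outside it was not searched. The motifs occur in 7.15%, 4.68%, 2.32% and 2.61% of the 32851 promoter windows searched. Whether the counted Usp2 transcripts begin at this start was not tested, so the search says nothing of other starts of the gene.

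Timeless (ENSMUSG00000039994, chromosome 10, 127669119 to 127689997) peaked in the evening and night in WT and had its higher values in the morning in KO. In KO the livers held 5.09, 6.31, 8.81 and 10.5 CPM at ZT0, 4.88, 5.65, 8.49 and 9.42 CPM at ZT4, and 5.21, 6.29, 7.50 and 8.92 CPM at ZT8. They held 3.60, 4.61, 5.50 and 5.95 CPM at ZT12, 4.97, 5.42, 5.46 and 6.05 CPM at ZT16, and 3.27, 4.79, 5.24 and 6.16 CPM at ZT20. The KO livers spread widely at ZT0 to ZT8, and all 6 times overlapped in the order of their means.

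In WT the livers held 5.05, 5.75, 5.88 and 6.32 CPM of Timeless at ZT0, 4.27, 5.12, 5.30 and 5.85 CPM at ZT4, and 4.63, 4.83, 5.15 and 5.18 CPM at ZT8. They held 6.44, 7.08, 7.51 and 9.36 CPM at ZT12, 6.77, 9.499, 9.79 and 9.84 CPM at ZT16, and 4.28, 4.80, 4.89 and 5.27 CPM at ZT20. Every WT liver of ZT12 and ZT16 was above every WT liver of the other 4 times. The genotypes did not overlap at ZT8, where KO was higher, nor at ZT12 and ZT16, where KO was lower.

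The difference of Timeless was 0.42, 0.47 and 0.50 at ZT0, ZT4 and ZT8 (log2, SE 0.20 each), with adjusted p of 0.265, 0.171 and 0.12. It was -0.63 ± 0.20 at ZT12 (adjusted p = 0.0315), -0.71 ± 0.20 at ZT16 (adjusted p = 0.0246) and 0.017 ± 0.20 at ZT20. The average was 0.010 ± 0.080 (log2, SE, adjusted p = 0.956), with 6.17 CPM ± 1.84 in KO and 6.20 CPM ± 1.77 in WT (SD, n = 24 each). The wave was of like size in the genotypes, 0.32 ± 0.092 in KO (SE, adjusted p = 0.099) and 0.36 ± 0.089 in WT (SE, adjusted p = 0.00365), with the fitted peak at ZT 3.53 in KO and ZT 14.7 in WT. The rhythms differed (adjusted p = 0.00045), as did the profile over time (interaction, adjusted p = 0.000696), and both calls held whichever mouse was left out. Between the cage mates of the 11 mixed cages alone, with cage as a block, the interaction had an adjusted p of 0.429. Within single cage sets, KO minus WT was 0.48 for ZT4 with ZT8 (log2, adjusted p = 0.0149), -0.67 for ZT12 with ZT16 (adjusted p = 0.00112) and 0.22 for ZT20 with ZT0 (adjusted p = 0.398).

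The single times were less firm for Timeless. Without KO mice 20, 21, 43 and 44 the ZT12 difference was -0.42 (log2, adjusted p = 0.315), and with body weight in the model its adjusted p was 0.0587. The ZT12 call also ended without KO mouse 20, KO mouse 21 or WT mouse 22, with adjusted p up to 0.114. At ZT16 the call ended without KO mouse 25, 26 or 30 or WT mouse 27, 29 or 32, with adjusted p up to 0.0827.

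The TIMELESS protein is known to act at the replication fork. Of 15 genes of the fork, the 10 that differed in rhythm between genotypes had WT peaks near that of Timeless. None of the 15 was called rhythmic in KO (2 by DESeq2), against 0.984% of all genes. An unadjusted p under 0.05 was reached in KO by 9 of the 15, against 3205 of the 14836 genes. In WT 10 were called rhythmic (48.1% of all genes). A difference in rhythm was called for 10 (22.8% of all genes), among them Mcm5, Mcm2, Mcm4, Mcm6 and Mcm3 of the replicative helicase. The WT peaks of these 10 lay between ZT 13.0 (Cdc45) and ZT 17.6 (Mcm7), and those of the rest of the list are not given here. The median amplitude of the 15 was 0.32 in KO and 0.38 in WT, and their summed level was 173, 174, 181, 144, 142 and 152 CPM in KO and 142, 128, 127, 158, 215 and 136 CPM in WT at ZT0 to ZT20. Averaged over the day 1 of the 15 was called (8.86% of all genes), Pcna, the sliding clamp, higher in KO by 0.17 (log2, adjusted p = 0.0139). Markers of dividing cells (Mki67, Top2a, Ccnb1, Cdk1 and Birc5) summed to 23.3, 37.05, 25.9, 22.7, 18.4 and 16.4 CPM in KO and 29.6, 34.6, 25.4, 13.2, 18.8 and 10.7 CPM in WT at the same times. Their highest means lay at ZT4 in each genotype, where single livers spread widely, from 17.9 to 74.7 CPM in KO and 10.5 to 75.2 CPM in WT. Of these 5 markers none was called rhythmic in KO (0.984% of all genes) and 3 were in WT (48.1%). A difference in rhythm was called for 1 (22.8% of all genes). The part of dividing cells in the result was not tested.

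The RefSeq promoter window of Timeless is shown because it was the only one searched among the 8 genes that held any of the 4 motifs. It is chr10:128237816-128238115, plus strand, of build GRCm38.p6, with the match in capitals:
Timeless: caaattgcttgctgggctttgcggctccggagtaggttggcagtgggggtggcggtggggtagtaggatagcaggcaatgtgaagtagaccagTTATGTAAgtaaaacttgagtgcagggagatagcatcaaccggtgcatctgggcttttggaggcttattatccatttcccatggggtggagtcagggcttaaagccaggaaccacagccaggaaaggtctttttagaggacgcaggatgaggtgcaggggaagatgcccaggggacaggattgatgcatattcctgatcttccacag
The match, TTATGTAA, fits the D-box letters and begins 157 bases before the start. Over the 32851 promoter windows the shares with a match are 7.15% (CACGTG), 4.68% (CACGTT), 2.32% (D-box) and 2.61% (TAGGTCA). The window was picked for its match, and whether the counted Timeless transcripts begin at this start was not tested. Entries were matched for 6 of the 8 genes (Csnk1e, Fbxl21, Fbxw11, Gsk3b, Usp2 and Timeless), with 4 starts for Csnk1e. The match describes the letters of the window and is no evidence of binding.

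Steps between neighbouring times of the same cage set compare mice of 1 housing set, and Usp2 was the only one of the 8 genes called in any of them. Usp2 was higher at ZT8 than at ZT4 in WT by 2.61 ± 0.34 (log2, SE, adjusted p = 1.14e-05), 1 of 8 genes against 3.0% of all genes. It was lower at ZT16 than at ZT12 in WT by -1.05 ± 0.32 (log2, SE, adjusted p = 0.0253), 1 of 8 against 12.5%. Its step at ZT0 minus ZT20 in WT was -1.26 ± 0.33 (log2, SE, adjusted p = 0.0563). None of the 8 passed there (2 by DESeq2), against 0.688% of all genes. An unadjusted p under 0.05 was reached in this step by 3 of the 8, against 2603 of the 14836 genes. In KO the same 3 steps of Usp2 were -0.033, 0.16 and 0.30 (log2, SE 0.32 each). In KO edgeR and DESeq2 called none of the 8 genes at ZT8 minus ZT4, ZT16 minus ZT12 or ZT0 minus ZT20. Over all genes the shares were 0%, 3.01% and 0%. An unadjusted p under 0.05 was reached by 1, 0 and 1 of the 8, against 808, 3194 and 788 of the 14836 genes. The WT call at ZT16 minus ZT12 ended without WT mouse 17 or 22 of ZT12 or WT mouse 27 or 32 of ZT16, with adjusted p up to 0.0753.

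The genes whose log2 CPM followed each listed gene most closely over the 48 libraries were taken among 12296 genes with a mean of at least 1 CPM, as a description. Usp2 was followed by Ppat (r = 0.886), which begins purine synthesis, and by Coq10b (r = 0.875), which binds coenzyme Q. Their WT amplitudes were 0.49 and 1.08. Timeless was followed by Mcm6 (r = 0.860) and Mcm3 (r = 0.855), both of the replicative helicase. Csnk1d was followed by Clic4 (r = 0.822) and Gfod2 (r = 0.767), whose WT waves peaked at ZT 19.2 and ZT 19.3, close to that of Csnk1d. Fbxw11 was followed by Hipk2 (r = 0.865), a kinase, and Usp34 (r = 0.8501), a deubiquitinase. Gsk3b was followed by Zfp148 (r = 0.809) and C1galt1 (r = 0.754), and Btrc by Zer1 (r = 0.731) and 3010026O09Rik (r = 0.709). The lowest values were those of Fbxl21 with Cdo1 (r = 0.671) and Gckr (r = 0.599), and of Csnk1e with Nrarp (r = 0.624) and Fgd5 (r = 0.603). The libraries share 12 groups and 1 scaling, so time, genotype and composition enter all of these values.

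Counts of calls among other enzymes that act on clock proteins are read against the shares over all genes. These were 0.984% rhythmic in KO, 48.1% rhythmic in WT and 22.8% with a difference in rhythm. At an unadjusted p under 0.05 there were 3205 of the 14836 genes for the KO rhythm and 8233 for the WT rhythm. Of 13 other kinases none was called rhythmic in KO by edgeR or DESeq2 (3 at an unadjusted p under 0.05), 7 were called in WT, near the share over all genes, and 2 differed in rhythm, Csnk2a2, a catalytic subunit of casein kinase 2, and Mapk9, a JNK kinase. Their median amplitude was 0.088 in KO and 0.13 in WT. Csnk2a2 had an amplitude of 0.10 in KO and 0.25 in WT, and its average level was lower in KO by -0.11 (log2, adjusted p = 0.0294). Of 15 other genes of ubiquitin ligases none was called rhythmic in KO (5 at an unadjusted p under 0.05, 1 by DESeq2), 10 were called in WT, and 5 differed in rhythm, among them Cul1, Ddb1, Cul4a and Dtl, which is of the order of the shares over all genes. Their median amplitude was 0.091 in KO and 0.16 in WT over the 15. Dtl, which with CUL4 acts on replication factors, stood out at 0.71 in KO and 0.90 in WT, peaking at ZT 14.7 in WT. Of 5 catalytic subunits of phosphatases 2 differed in rhythm, Ppp1ca and Ppp1cc, with WT amplitudes of 0.25 and 0.17. The 2 other deubiquitinases, Usp7 and Usp9x, had WT amplitudes of 0.052 and 0.18, and neither was called rhythmic in WT by edgeR or DESeq2 (1 at an unadjusted p under 0.05).

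KO livers of the same time differed in Dbp, an output gene of the clock, between 2.46 and 61.8 CPM over all KO mice, so it was asked whether the listed genes varied with Dbp from mouse to mouse. Deviations of log2 CPM from the group mean were correlated over the 24 mice of each genotype, which makes 16 relations, with two-sided permutation p-values within groups. In KO mice Csnk1d was lower where Dbp was higher. Pearson's r was -0.567, with a permutation p of 0.00302 that became 0.0483 after Benjamini-Hochberg adjustment over the 16. Spearman's rho was -0.633 (permutation p = 0.00343, or 0.0426 adjusted). Leaving out the 2 mice with the most extreme Dbp left r at -0.567. The largest deviations of Csnk1d in KO were those of mouse 20 (0.187) and mouse 21 (-0.198), and r without these mice is not given here. In KO mice Usp2 was higher where Dbp was higher, with an r of 0.648 (permutation p = 0.00658, or 0.0526 adjusted) that missed the threshold, and a rho of 0.633 (permutation p = 0.00533, or 0.0426 adjusted). For Usp2, leaving out the 2 mice with the most extreme Dbp gave an r of 0.608. In WT mice the value for Csnk1d was -0.402 (rho = -0.485, adjusted p = 0.337 for r) and that for Usp2 was 0.177 (rho = 0.345, adjusted p = 0.877 for r). With raw log2 CPM in place of deviations, Csnk1d in KO no longer passed (r = -0.432, adjusted p = 0.0902). The other 12 relations did not pass, with r between -0.247 and 0.415. Whether the KO and WT values differ was not tested.

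**Figure D5:**
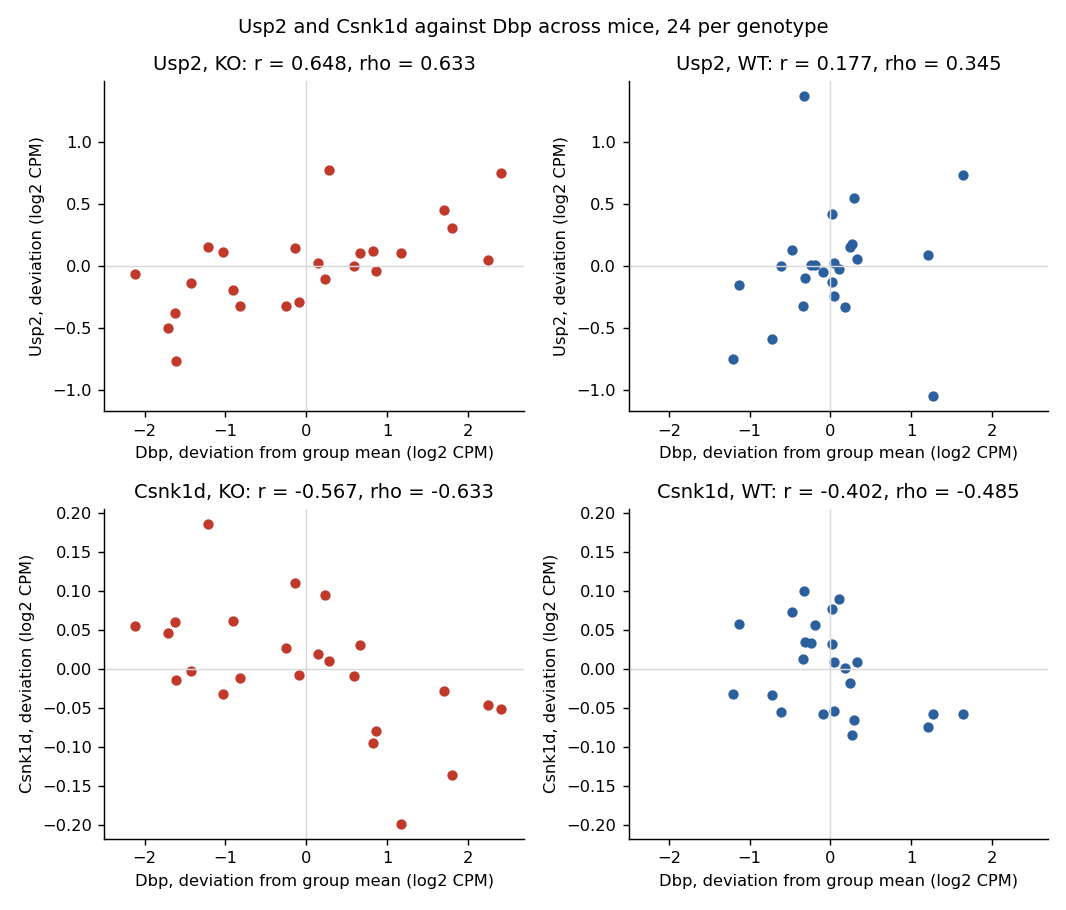
Deviation of Usp2 (top) and Csnk1d (bottom) from the group mean (y axis, log2 CPM) against that of Dbp (x axis, log2 CPM) in 24 KO mice (red, left) and 24 WT mice (blue, right). In KO the points of Usp2 climb with Dbp (r = 0.648) and those of Csnk1d decline with it (r = -0.567); the WT panels show r of 0.177 and -0.402.

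Sequence shared with transcripts of other genes was limited in all 8 genes, which does not cover overlap of genes in the genome, such as that of Usp2 with Rnf26. Of all stretches of 50 bases in the transcripts of each gene (GENCODE vM21), the share also found in transcripts of another gene was 3.13% for Usp2, 2.58% for Csnk1e, 2.38% for Timeless, 0.834% for Btrc, 0.352% for Csnk1d, 0.0203% for Gsk3b, and 0% for Fbxl21 and Fbxw11. Levels per length put Csnk1d first, followed by Fbxw11 (11.2 CPM per kb in KO, 11.3 CPM per kb in WT), Usp2 (8.26 CPM per kb in KO, 9.52 in WT) and Gsk3b (5.09 CPM per kb in KO, 5.44 in WT). The other 4 lay near or under 1.10 CPM per kb: Fbxl21 at 1.10 in KO and 0.950 in WT, Csnk1e as above, Timeless at 1.01 in both genotypes, and Btrc at 0.878 in KO and 0.928 in WT. The length used is the union of annotated exons, 16908 bases for Btrc, and may differ from that of the counted transcripts.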

How the data were processed

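Liver poly-A RNA of 48 mice was sequenced from libraries that do not record strand. The values used are whole-number read counts per gene from the table the authors deposited, made with CASAVA and with STAR 2.4.0f1 on build mm9, per the submitters' processing notes; the gene models, the counting rule and the step that gave nearly equal totals are not given in the sources used here. Mice are separate animals, grouped by genotype and time from the labels. Counts were tested with edgeR 4.0.16 (R 4.3.3): filterByExpr with a minimum count of 10 kept 14836 genes with 99.975% of counts, TMM factors ran between 0.898 and 1.14, and quasi-likelihood F tests used 1 mean per group (36 residual degrees of freedom) or a 24 h cosine and sine per genotype (42). P-values were adjusted by Benjamini and Hochberg's method across the 14836 genes, with a threshold of 0.05. Standard errors come from the F statistics, and those of amplitudes are approximate. The wave rests on 1 cycle sampled at 6 times. Log2 CPM used a prior count of 2, and correlations used 100000 permutations. Lengths are GENCODE vM21 exon unions (GRCm38) matched by gene ID. Alternatives were library totals without TMM, no filter, DESeq2 1.42.0, limma-voom 3.58.1 with cage as a random block, cage mates alone with cage as a block (chosen after seeing the data), body weight as a covariate, cage sets taken alone, any difference among times, and leaving out mice. Scripts were tested on simulated data. The genes and lists were chosen with earlier results of these data known. Named are all 8 genes, the smallest, median and largest WT amplitude of the core clock list, the called genes of other lists (otherwise up to 4 with the smallest p), and the 2 genes nearest to each listed gene. 1 gene of the other lists is not reported here.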

Additional observations from a re-analysis of the deposited data

Results flagged for a closer look

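Values of single mice that stood far from the other 3 of their group were looked for in 96 groups of 4 (8 genes, 12 groups), and 2 were found; chance gives about 1 in 20 groups. Fbxw11 was 49.4 CPM in WT mouse 40 of ZT20, against 53.1 to 53.6 CPM in the other 3 WT mice of that time. Timeless was 6.77 CPM in WT mouse 28 of ZT16, against 9.499 to 9.84 CPM in the other 3.

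The effect of genotype differed between times for Usp2 and Timeless. For Usp2 the adjusted p of the rhythm difference was 1.04e-06 and that of the interaction 8.3e-07; for Timeless they were 0.00045 and 0.000696 (edgeR quasi-likelihood tests).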

How the results depend on the processing

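Of the 8 genes, averaged over the 6 times, 1 was called; with body weight as a covariate it was 0 (edgeR, Fbxl21 at an adjusted p of 0.063), within the cage set of ZT4 and ZT8 it was 2, and within that of ZT12 and ZT16 it was 3. Steps within a cage set gave 2 calls, 4 with DESeq2, 4 without KO mice 20, 21, 43 and 44, and 1 to 4 with each mouse left out in turn. Shares over all genes are not given here for single cage sets or for these alternative fits of the steps. The counts are therefore not read as a result about the 8 genes. Relations with Dbp gave 1 call by r, Csnk1d in KO, while by rho both Csnk1d and Usp2 in KO passed (adjusted p = 0.0426 each, permutation). With raw log2 CPM in place of deviations the course over the day enters. By r the call for Csnk1d in KO was then lost and 5 others were made (Usp2 in KO and Csnk1d, Fbxw11, Gsk3b and Usp2 in WT). Over all genes, the count rhythmic in KO moved most: 146 genes, against 28 with no filter, 455 by DESeq2, and 3 to 473 with a mouse left out, more than 1.5 times away in 29 of 48 fits. The count for the average, 1314, was 711 with body weight.

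Reversed signs arose where the average was taken over 1 cage set: Fbxl21 at -0.0078 for ZT4 and ZT8, Usp2 at -0.90 and Timeless at -0.67 for ZT12 and ZT16. With raw log2 CPM, r against Dbp in WT was -0.628 for Fbxw11 and -0.515 for Gsk3b. Among values for single genes over the alternatives, 57 lost and 22 gained a call. Calls were gained by leaving out single mice: Fbxl21 at ZT12 without WT mouse 22 (adjusted p = 0.033), at ZT16 without WT mouse 27 (0.0369), at ZT20 in 9 of 48 fits, in the interaction without WT mouse 22 (0.0424) or 27 (0.0488) and in the rhythm difference without KO mouse 1 or WT mouse 27 or 32; Usp2 at ZT8 without KO mouse 44 or WT mouse 42 or 48; and the ZT0 minus ZT20 step in WT for Usp2 without KO mouse 43, 44 or 30 or WT mouse 42 or 40, and for Csnk1d without KO mouse 20 or 21 or WT mouse 42. The rhythm difference of Fbxl21 also passed with cage as a block (0.0285).

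Mouse numbers are unique and pair no mice across groups, but 11 cages held a KO and a WT mouse of the same time. A comparison of these 22 cage mates with cage as a replicate block, an alternative chosen after seeing the data, left 5 residual degrees of freedom. In it 0 of the 8 genes were called in the average (edgeR; 1 at an unadjusted p under 0.05, Fbxl21, at 0.38 with an adjusted p of 0.103) and 1 in the interaction, Usp2 (adjusted p = 0.0396), while Timeless was not (adjusted p = 0.429). Over all genes 91 were called in the average (2039 at an unadjusted p under 0.05) and 39 in the interaction. As a random block over all mice, cage had a within-cage correlation of 0.0806 in the model of group means and 0.158 in the 24 h model. With 4 mice per group and 1 cycle, adjusted p-values cover the spread between mice only.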
